A study of Homo sapiens with 8 samples.

Results

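The AP-1 family was followed here through 8 genes, FOS, FOSB, FOSL1, FOSL2, JUN, JUNB, JUND and ATF3, across a transfection experiment in Reh cells. The members are the 20 probe sets that carry 1 of these symbols alone in the platform annotation, of 54675 probe sets on the array. Reh is an established human B-cell precursor line. The design text calls it acute lymphoblastic leukemia, whereas the malignancy label of the samples reads non-Hodgkin lymphoma. RNA came from cells transfected with both constructs together (the CBFA2T3 shRNA and IKKβ(EE)), with the CBFA2T3 shRNA alone, with IKKβ(EE) alone, or with a control shRNA that the sample titles call mock. The CBFA2T3 protein, a relative of ETO, acts as a corepressor of transcription, and IKKβ(EE) is a constitutively active form of the kinase that releases NF-κB. There were 2 arrays per group, 8 in all, called biological replicates 1 and 2. The source names describe knockdown and expression as transient, and nothing in the labels tells what fraction of cells was transfected or whether cells with IKKβ(EE) alone also received a control shRNA. Nor do the labels say whether the replicates were separate cultures, so the p-values below measure the spread between these arrays.

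AP-1 is a dimer of basic leucine zipper proteins that binds short DNA elements. JUN proteins pair with each other, with FOS proteins and with ATF proteins. FOS, FOSB, JUN, JUNB and ATF3 are immediate early genes, transcribed within minutes of growth factor, stress or cytokine signals that reach them through MAP kinases, and JUND is known for steadier expression. In lymphoid cells JUN and JUNB are best known for their high levels in Hodgkin and anaplastic large cell lymphoma.

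Promoter stretches are shown for FOS, JUN, ATF3 and FOSL2, which differed most between the groups, and for JUND, which differed least. They are RefSeq sequences of GRCh38.p14, written 5′ to 3′ on the gene's strand, with motif matches in capitals. FOS, JUN and ATF3 are shown over the 150 bases before the start site, JUND over bases -250 to -101, and FOSL2 over the 27 bases around its match.
FOS, chr14:75278678-75278827, plus strand: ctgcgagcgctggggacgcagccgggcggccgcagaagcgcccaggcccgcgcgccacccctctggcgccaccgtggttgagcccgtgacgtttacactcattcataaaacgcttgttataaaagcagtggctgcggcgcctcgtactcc
JUN, chr1:58784048-58784197, minus strand: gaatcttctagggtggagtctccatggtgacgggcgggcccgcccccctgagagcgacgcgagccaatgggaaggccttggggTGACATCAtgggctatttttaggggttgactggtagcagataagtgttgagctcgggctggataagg
ATF3 upstream start, chr1:212565257-212565406, plus strand: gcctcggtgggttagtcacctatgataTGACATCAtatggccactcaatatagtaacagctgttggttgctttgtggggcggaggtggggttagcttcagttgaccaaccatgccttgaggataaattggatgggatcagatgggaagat
FOSL2, chr2:28392852-28392878, plus strand: gccattgtagTGACTCAtctcgggcag
JUND, chr19:18281723-18281872, minus strand: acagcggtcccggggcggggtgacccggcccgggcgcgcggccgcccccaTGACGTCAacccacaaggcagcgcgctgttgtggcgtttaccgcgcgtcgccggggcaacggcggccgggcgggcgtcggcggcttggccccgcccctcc
Windows of 300 bases, from 250 before to 50 after each start, were searched on both strands for the AP-1 element TGACTCA, the cyclic AMP response element TGACGTCA, the AP-1-like TGACATCA known from the JUN promoter, the NF-κB consensus and the serum-responsive CArG box. The table held 8 windows for 7 of the 8 members (all but FOSL1), 2 of them for ATF3. The second ATF3 window, chr1:212614768-212615067, lies inside the gene, which spans chr1:212565407-212620777. Starts without a window were not searched. TGACATCA began at base -67 of JUN and base -123 of the upstream ATF3 window, TGACTCA at base 5 of FOSL2, and TGACGTCA at base -200 of JUND. None of the 5 motifs was in the windows of FOS, FOSB, JUNB or the second ATF3 start, and no 2 matches overlapped. Among all 35116 windows, 4.95% held TGACTCA, 1.85% TGACGTCA, 2.61% TGACATCA, 11.3% the NF-κB consensus and 1.29% a CArG box. A match is a description of letters and not a site in use. Only exact matches to these patterns inside the windows were counted, so variant sites and sites farther from a start were not looked for.

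Over the tested probe sets any 2 arrays correlated at 0.937 to 0.991. CBFA2T3 stood at 8.03 ± 0.28 (log2 intensity, SD, n = 2) with both constructs, 8.26 ± 0.21 with its shRNA, 8.90 ± 0.01 with IKKβ(EE) and 9.26 ± 0.05 with the control. An IKBKB probe set (IKBKB encodes IKKβ) averaged 11.71 with both constructs and 10.62 with IKKβ(EE), and lay between 3.6 and 4.44 on the 4 arrays without IKKβ(EE). The other 2 IKBKB sets read 8.47 to 9.18 and 6.81 to 7.43 over all arrays. B-cell precursor markers were high, with 8 of 9 measured genes above the floor of log2 5 on at least 2 arrays and a mean of 10.21 to 10.57 per array. VPREB1, a surrogate light chain gene, was the exception. With both constructs against control, where AP-1 genes rose, 0 of these 8 marker genes were higher, against 46.3% of all tested sets. Their median change was -0.31, and 0 were called without the block, where 3.75% of all sets were called lower. With the block 2 of the 8 were called lower (12% of all sets), DNTT (-0.46 ± 0.16, block adjusted p = 0.0326) and CD79B (-0.37 ± 0.12, block adjusted p = 0.0481). Lists for T cells (1 of 7 above the floor), myeloid cells (2 of 6) and fibroblasts or epithelium (2 of 8) had means of 4.05 to 4.70 per array. The myeloid marker ITGAM, an integrin gene, read 5.66 and 6.70 with both, 5.87 and 6.21 with the shRNA, 5.99 and 6.92 with IKKβ(EE), and 5.32 and 5.61 with the control, and was called higher only with the block for both and for IKKβ(EE) (block adjusted p = 0.0388 and 0.0438). CSF1R, the other myeloid gene above the floor, lay between 4.61 and 5.28 on the 8 arrays and was not called in these comparisons. The rest of the myeloid list did not pass the floor, so ITGAM does not stand for the list. The part of the B-cell marker and ITGAM shifts in the AP-1 values was not tested. The 3′ minus 5′ difference of the GAPDH control sets, a sign of RNA integrity, lay between 0.26 and 0.38 on all arrays, and that of the ACTB sets between 1.25 and 1.94. In bulk RNA a strong change in a few cells and a weak change in all cells cannot be told apart.

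With both constructs together, 5 of the 8 AP-1 genes had a probe set above the control shRNA at an adjusted p under 0.05 in limma's test. These were 7 of the 12 tested sets, where 4.68% of all tested sets were higher. FOS was 8.20-fold higher, FOSL2 6.46-fold, JUN 7.96-fold and 6.54-fold on 2 probe sets, JUNB 3.56-fold, and ATF3 4.42-fold and 2.85-fold on 2 probe sets. The other tested sets of FOSL2 (3.11-fold) and JUN (7.26-fold and 5.33-fold) did not pass. The control means behind the FOS, FOSL2 and JUN folds that passed were 3.79 to 5.10, under or at the floor of log2 5, so the size of these folds is uncertain. FOS averaged 7.96 with both constructs and 8.11 with the CBFA2T3 shRNA alone, whereas JUNB averaged 8.53 with both and 7.38 with that shRNA. JUN and ATF3 averaged highest with both constructs, and JUND lay between 10.08 and 10.79 throughout. Of the 20 probe sets 12, from 7 genes, reached log2 5 on at least 2 arrays and were tested. The single FOSL1 set (3.79 to 4.33 over the 8 arrays), 3 of 5 FOSL2, 3 of 4 JUND and 1 of 3 ATF3 sets were below that floor. FOSL2 passed it only through the arrays with the CBFA2T3 shRNA, alone or combined, and FOSB only through arrays with IKKβ(EE), alone or combined, so that counts over the tested sets favour differences.

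**Figure D1:**
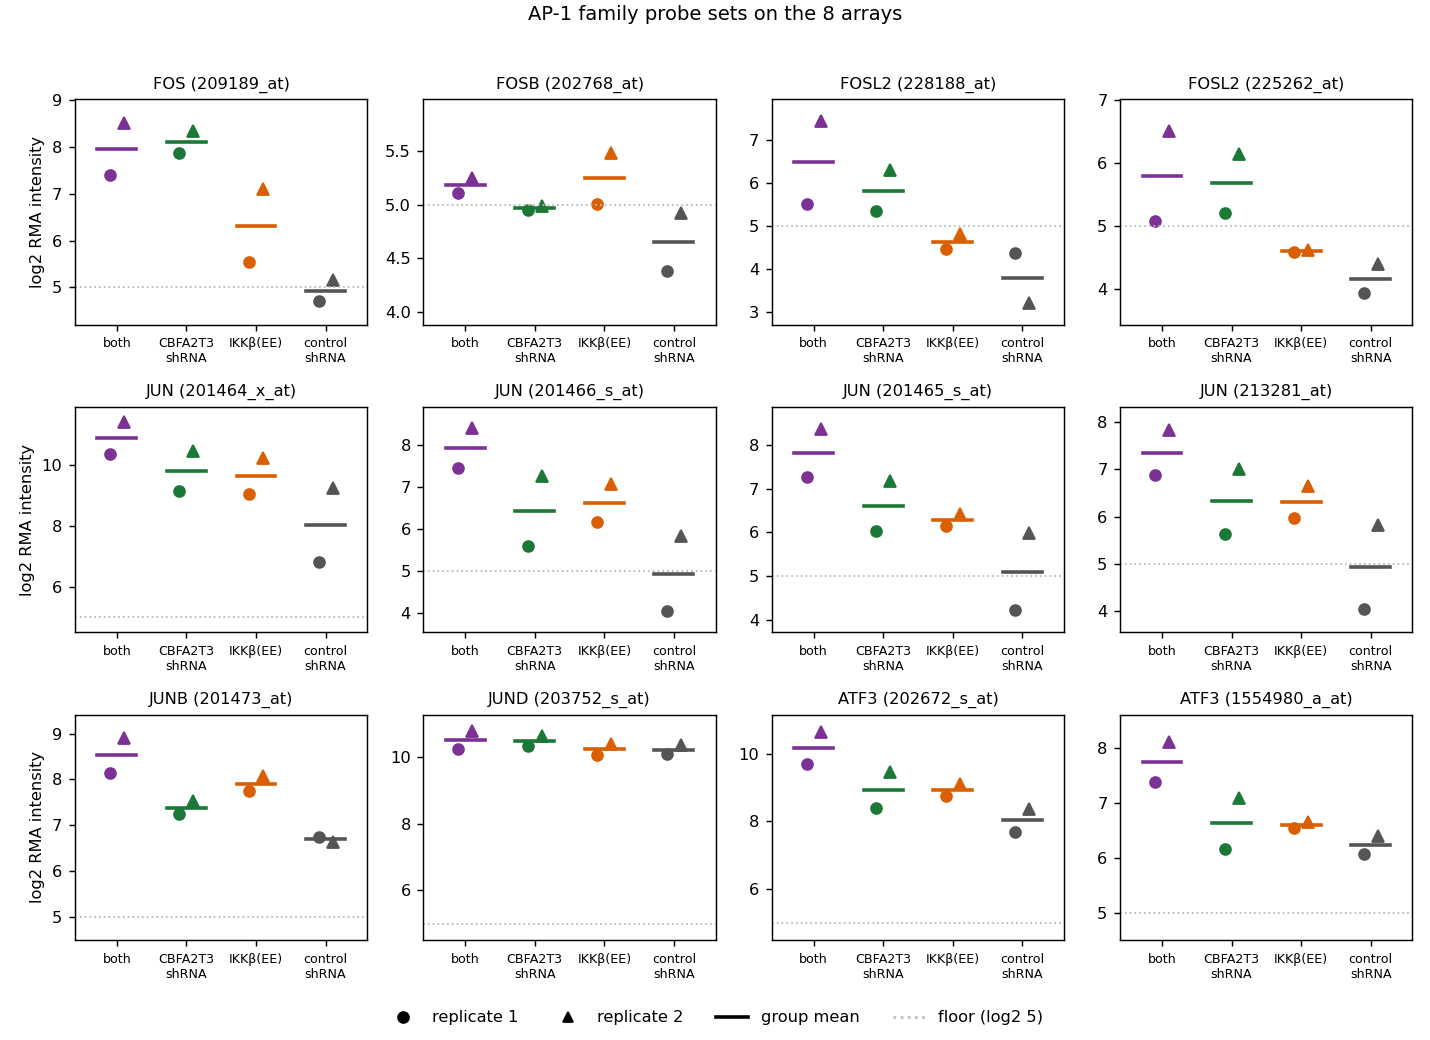
Log2 RMA intensity (y axis) of the 12 tested AP-1 probe sets in the 4 groups (x axis), with circles for replicate 1, triangles for replicate 2, horizontal bars for group means of 2 arrays and a dotted line at log2 5. FOS is high in both groups with the CBFA2T3 shRNA, JUN and ATF3 are highest with both constructs, and JUND stays between 10.08 and 10.79.

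By limma's moderated test, with p-values adjusted by Benjamini-Hochberg over 24481 probe sets, 7 of the 12 sets were called higher with both constructs than with control, where 4.68% of all tested sets were. A called set is one with an adjusted p under 0.05. With the CBFA2T3 shRNA alone 0 of 12 were called higher (0.294% of all sets), and with IKKβ(EE) alone 0 of 12 (0.221%). The CBFA2T3 shRNA had 5 of 12 higher at an unadjusted p under 0.05 (8.17% of all sets) and IKKβ(EE) had 3 of 12 (6.1%). Arrays with the same replicate number shifted in the same direction across probe sets (see the correlations under processing). A second fit that blocks on the number is therefore given for AP-1 sets wherever it changes a call. Its adjusted p is written after the word block. With that block 11 of 12 sets were called higher with both constructs (11.8% of all sets), 7 of 12 with the CBFA2T3 shRNA (3.98%) and 6 of 12 with IKKβ(EE) (2.96%). In these 3 comparisons, which share their control arrays, 0 of 12 were called lower, where 3.75% of all sets were with both constructs, 0.396% with the shRNA and 0.00817% with IKKβ(EE). With the block 0 of 12 were called lower too, where 12% (both), 3.74% (shRNA) and 0.437% (IKKβ(EE)) of all sets were. The median change of the 12 sets was 2.28 with both, 1.44 with the CBFA2T3 shRNA and 1.04 with IKKβ(EE), against -0.03, 0.01 and -0.03 over all tested sets. The 12 sets come from 7 genes, with JUN, FOSL2 and ATF3 counted more than once. With only the brightest set of each gene the medians were 2.14, 0.88 and 0.90 in the same order. Of these 7 sets 6, 3 and 4 were called higher with the block. The order of the 2 single constructs thus depends on how probe sets are counted. The 7 calls without the block rested on each control array: leaving out either one left 0 of 12 calls, leaving out replicate 2 of both constructs left 1, and leaving out either IKKβ(EE) array left 3. The calls with the block were 8 to 11 without any 1 array for both constructs. For the CBFA2T3 shRNA they dropped to 1 and 0 without its replicate 1 or 2 and to 4 and 3 without control replicate 1 or 2. For IKKβ(EE) they were 1 without its replicate 1 or either shRNA array, 2 without control replicate 1 and 3 without control replicate 2.

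**Figure D2:**
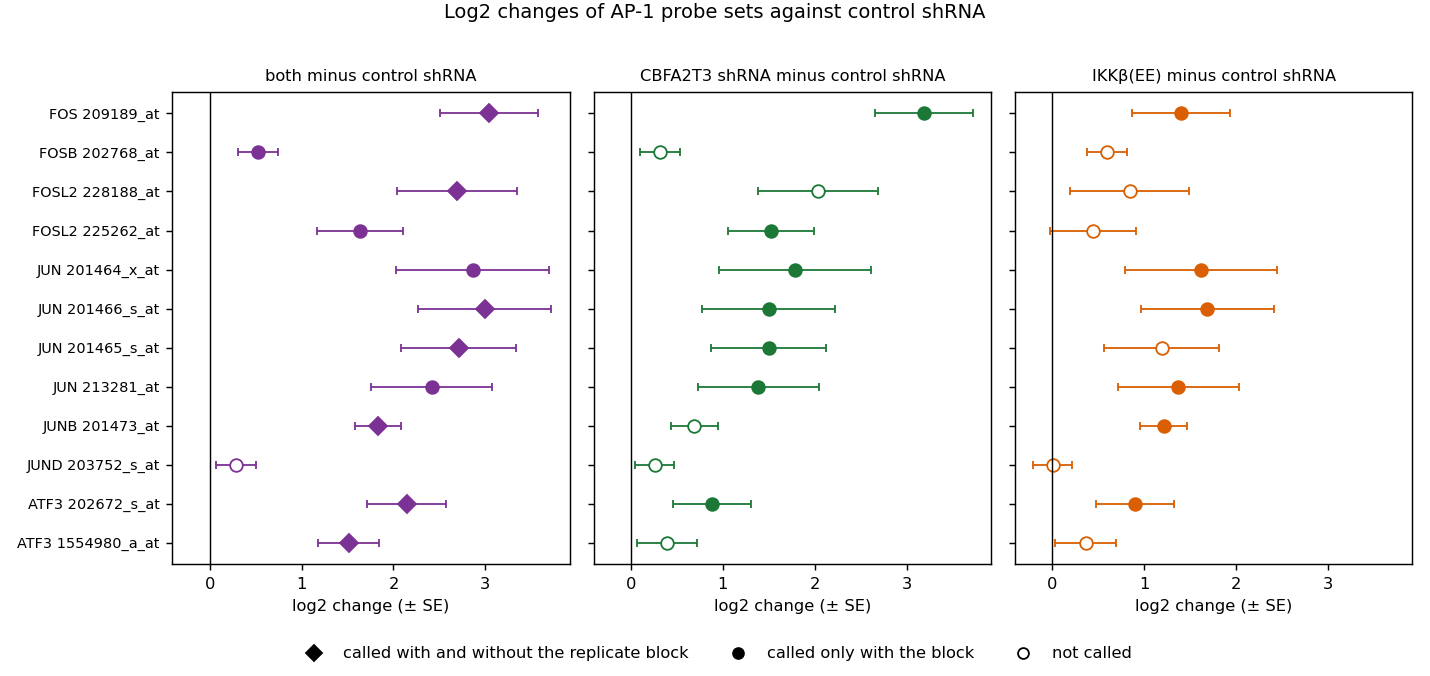
Log2 change against control shRNA (x axis, ± SE of the fit, n = 2 arrays a group) of the 12 tested probe sets (y axis) with both constructs, the CBFA2T3 shRNA and IKKβ(EE). Diamonds are called with and without the replicate block, filled circles only with it, and open circles in neither fit; the diamonds are all in the panel for both constructs.

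FOS, an AP-1 subunit that dimerizes with JUN proteins, had 1 probe set (209189_at). It read 7.39 and 8.52 with both constructs, 7.87 and 8.36 with the CBFA2T3 shRNA, 5.55 and 7.10 with IKKβ(EE), and 4.70 and 5.15 with the control (log2 intensity, replicates 1 and 2). The arrays with both constructs and those with the shRNA alone overlapped, both pairs lay above the IKKβ(EE) pair, and all 6 lay above the control pair. FOS rose by 3.04 ± 0.53 with both constructs against control (adjusted p = 0.0210). With the CBFA2T3 shRNA alone the change was 3.19 ± 0.53, the fifth highest of 24481 sets, with an adjusted p of 0.0539 (block 0.00345). The change was 3.17 within replicate 1 and 3.21 within replicate 2. IKKβ(EE) alone gave 1.40 ± 0.53 (adjusted p = 0.467, block 0.0362), at 0.85 and 1.95 within the 2 replicates. Adding the shRNA to IKKβ(EE) went with a change of 1.64 ± 0.53 (adjusted p = 0.221, block 0.0257). Adding IKKβ(EE) to the shRNA went with -0.15, with a 95% confidence interval of -1.39 to 1.09. Without control replicate 1, control replicate 2 or replicate 2 of both, the call with both constructs was lost (adjusted p = 0.112, 0.119 and 0.104).

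FOSB, a close relative of FOS, was dim on its 1 set (202768_at). Its levels were 5.11 and 5.25 with both, 4.95 and 4.99 with the CBFA2T3 shRNA, 5.01 and 5.49 with IKKβ(EE), and 4.38 and 4.93 with the control. The control pair was below the other 6 arrays, by as little as 0.02 for the shRNA. Its change with both constructs was 0.53 ± 0.22 (adjusted p = 0.168, block 0.0374). IKKβ(EE) alone gave 0.60 ± 0.22 (adjusted p = 0.441) and the shRNA alone 0.31 ± 0.22 (adjusted p = 0.535).

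FOSL2, also called FRA2, encodes a FOS-related protein without the strong activation domain of FOS. On set 228188_at it read 5.51 and 7.45 with both, 5.34 and 6.30 with the CBFA2T3 shRNA, 4.45 and 4.81 with IKKβ(EE), and 4.38 and 3.20 with the control. On set 225262_at the values were 5.08 and 6.52, 5.22 and 6.15, 4.58 and 4.63, and 3.93 and 4.39 in the same order of groups. On each set all 4 arrays that had received the shRNA were above all 4 that had not. The arrays without it were all under the floor, so the size of the changes is uncertain. Both sets passed the floor only through the arrays with the shRNA, which selects for such a separation. The separation and the p-values of FOSL2 are therefore not independent evidence of a difference. FOSL2 read 2.69 ± 0.65 higher on the first set with both constructs than with control (adjusted p = 0.0471). The change was 1.64 ± 0.47 on the second (adjusted p = 0.0740, block 0.00880). The CBFA2T3 shRNA alone gave 2.03 ± 0.65 (adjusted p = 0.188) and 1.52 ± 0.47 (adjusted p = 0.176, block 0.0262). The first set's change with both constructs was 1.13 within replicate 1 and 4.25 within replicate 2, and its call was lost without either control array, either single-construct array of either group, or replicate 2 of both. Another set, 218880_at, reached 6.61 on replicate 2 of both constructs and at most 4.93 elsewhere, so it was not tested. The remaining FOSL2 sets, 205409_at (4.29 to 4.76) and 218881_s_at (3.02 to 3.70), stayed near background on every array.

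JUN, the founding member of the family, was read by 4 probe sets, 1 of them (201464_x_at) of a kind that can also bind other transcripts. That set gave 10.36 and 11.41 with both, 9.14 and 10.47 with the CBFA2T3 shRNA, 9.04 and 10.24 with IKKβ(EE), and 6.81 and 9.24 with the control. Set 201466_s_at gave 7.45 and 8.41, 5.60 and 7.27, 6.18 and 7.06, and 4.04 and 5.83 in that order. Set 201465_s_at gave 7.26 and 8.36, 6.02 and 7.17, 6.15 and 6.43, and 4.22 and 5.98, and set 213281_at ranged from 4.04 to 7.83. In each of the 4 sets replicate 2 with both constructs was highest and replicate 1 of the control lowest. Both arrays with both constructs lay above the other 6 on 201466_s_at and 201465_s_at, while on the other 2 sets replicate 2 of the shRNA exceeded replicate 1 of both. Replicate 2 of the control was above replicate 1 of the shRNA on all sets but 201465_s_at, and above replicate 1 of IKKβ(EE) on 201464_x_at. In all 4 sets replicate 1 of the control was lower than replicate 2, by 2.42, 1.80, 1.76 and 1.79.

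JUN rose by 2.99 ± 0.72 (201466_s_at, adjusted p = 0.0472) and 2.71 ± 0.62 (201465_s_at, adjusted p = 0.0416) with both constructs against control. The changes on the other 2 sets were 2.86 ± 0.83 (201464_x_at, adjusted p = 0.0760) and 2.42 ± 0.66 (213281_at, adjusted p = 0.0656), which passed with the block (0.00134 and 0.00106). Within replicate 1 the 4 changes were 2.83 to 3.55 and within replicate 2 they were 2.00 to 2.58. Without the block, the calls of 201466_s_at and 201465_s_at were lost in most fits that left out 1 array, including those without either control array. Their changes then ranged from 2.09 to 3.89 and from 1.83 to 3.59. The CBFA2T3 shRNA alone went with 1.39 to 1.78 (adjusted p = 0.293 to 0.367), and all 4 sets passed with the block (0.0144 to 0.0278). IKKβ(EE) alone went with 1.19 to 1.68 (adjusted p = 0.512 to 0.582), and 3 of 4 passed with the block (0.0130 to 0.0362). Adding the shRNA to IKKβ(EE) went with 1.31 ± 0.72 on 201466_s_at (adjusted p = 0.44, block 0.0331) and 1.52 ± 0.62 on 201465_s_at (adjusted p = 0.316, block 0.0388). Adding IKKβ(EE) to the shRNA went with 1.49 ± 0.72 on 201466_s_at (adjusted p = 0.380, block 0.0175). The remaining JUN sets were not called in either fit of these 2 comparisons. Without control replicate 1 and with the block, the changes with both constructs were 2.02 to 2.68 (adjusted p = 0.000860 to 0.00658). In that fit only 201464_x_at passed for the CBFA2T3 shRNA (1.17 ± 0.15, adjusted p = 0.0222) and for IKKβ(EE) (1.00 ± 0.15, adjusted p = 0.0328).

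JUNB, a JUN relative with a weaker activation domain, had 8.14 and 8.91 with both, 7.24 and 7.53 with the CBFA2T3 shRNA, 7.74 and 8.07 with IKKβ(EE), and 6.75 and 6.64 with the control (201473_at). The 4 groups did not overlap: both constructs lay highest, then IKKβ(EE), then the shRNA, then the control. JUNB rose by 1.83 ± 0.25 with both constructs against control (adjusted p = 0.0104), the smallest adjusted p in the family. Its change under IKKβ(EE) alone was 1.21 ± 0.25 (adjusted p = 0.158, block 0.0198). Under the CBFA2T3 shRNA alone it was 0.69 ± 0.25 (adjusted p = 0.239). Adding IKKβ(EE) to the shRNA went with 1.14 ± 0.25 (adjusted p = 0.115, block 0.0217). Adding the shRNA to IKKβ(EE) went with 0.62 ± 0.25 (adjusted p = 0.314). Leaving out either control array ended the call of both constructs against control (adjusted p = 0.0696 and 0.0982).

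JUND, the JUN protein that many resting cells contain, stood at 10.26 and 10.79 with both, 10.35 and 10.64 with the CBFA2T3 shRNA, 10.08 and 10.40 with IKKβ(EE), and 10.11 and 10.36 with the control (203752_s_at). All 4 groups overlapped with at least 1 other. Its changes against control were 0.29 (95% confidence interval -0.21 to 0.78) with both, 0.26 (-0.24 to 0.76) with the shRNA and 0.00 (-0.49 to 0.50) with IKKβ(EE). Intervals of that width leave room for changes of up to 1.72-fold. The other 3 JUND sets lay between 3.42 and 4.44 on every array.

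ATF3, a stress-induced partner of JUN proteins that often represses transcription as a homodimer, was bright on 202672_s_at. That set read 9.71 and 10.65 with both, 8.39 and 9.44 with the CBFA2T3 shRNA, 8.76 and 9.11 with IKKβ(EE), and 7.70 and 8.37 with the control. Set 1554980_a_at read 7.38 and 8.11, 6.17 and 7.08, 6.54 and 6.66, and 6.08 and 6.39 in the same order. On each set the pair with both constructs was above the other 6 arrays. The shRNA pair and the IKKβ(EE) pair overlapped, and on the second set the shRNA pair also overlapped the control. ATF3 rose by 2.14 ± 0.43 (adjusted p = 0.0298) and 1.51 ± 0.33 (adjusted p = 0.0361) with both constructs against control. Without the block both calls were lost when either control array was left out, and that of 1554980_a_at in most fits without 1 array. The changes then ranged from 1.67 to 2.62 and from 1.15 to 1.88. With the CBFA2T3 shRNA the changes were 0.88 ± 0.43 (adjusted p = 0.368, block 0.0270) and 0.39 ± 0.33 (adjusted p = 0.625). With IKKβ(EE) they were 0.90 ± 0.43 (adjusted p = 0.549, block 0.0375) and 0.36 ± 0.33 (adjusted p = 0.732). Against IKKβ(EE) alone both constructs gave 1.24 ± 0.43 and 1.15 ± 0.33 (adjusted p = 0.241 and 0.178, block 0.0190 and 0.0283). Against the shRNA alone they gave 1.26 ± 0.43 and 1.12 ± 0.33 (adjusted p = 0.247 and 0.195, block 0.00958 and 0.0235). The remaining ATF3 set, 1554420_at, lay between 3.10 and 3.47. HSPA6, a heat shock gene with little expression in unstressed cells, also stood apart in the arrays with both constructs, at 8.42 and 8.27, against 4.07 and 4.03 with the shRNA, 5.17 and 4.81 with IKKβ(EE), and 4.19 and 4.56 with the control. The other measured genes of the heat shock list, DNAJB1 and HSPH1, were not called in any of the 6 comparisons, with or without the block, and the part of this gene's stress response in the AP-1 values was not tested.

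The 2 comparisons with a single construct as the starting point asked what the second construct added. The IKBKB set that read high with IKKβ(EE) was itself 1.09 ± 0.30 higher with both constructs than with IKKβ(EE) alone (adjusted p = 0.171, block 0.0714). The part of that difference in the comparison with IKKβ(EE) alone and in the interaction was not tested. When both constructs were set against IKKβ(EE) alone, 0 of 12 AP-1 sets were called higher by limma (0.0858% of all sets), 7 of 12 had an unadjusted p under 0.05 (7% of all sets), and 5 of 12 were called with the block (2.18%), from FOS, JUN and ATF3. Against the CBFA2T3 shRNA alone 0 of 12 were called higher (0.821%), 3 of 12 had an unadjusted p under 0.05 (7.7%), and 4 of 12 were called with the block (3.64%), from JUN, JUNB and ATF3. The block calls rested on single arrays. Against IKKβ(EE) they fell to 0 without IKKβ(EE) replicate 2 or replicate 2 of both, and to 2 without IKKβ(EE) replicate 1, and against the shRNA to 0 without either shRNA array and to 1 without replicate 2 of both. FOS and FOSL2 were called in neither fit of the second comparison, where their changes were -0.15, 0.66 and 0.11, with 95% confidence intervals from -1.39 to 2.17.

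The interaction asked whether the change with both constructs differed from the sum of the single changes on the log2 scale. It was called for 0 of 12 AP-1 sets (0.0123% of all sets were called above the sum and 0% below it), and the block fit gave the same counts. At an unadjusted p under 0.05 there were 0 of 12 in either direction without the block (1.1% of all sets above and 1.07% below). With the block 1 of 12 was above (ATF3 set 1554980_a_at, where 2.41% of all sets were) and 1 below (FOS, where 3.13% were), with block adjusted p-values of 0.806 and 0.527. FOS had the lowest value, -1.55 ± 0.75 (adjusted p = 0.9998, 95% confidence interval -3.31 to 0.20), at -1.32 within replicate 1 and -1.78 within replicate 2. At the other end ATF3 set 1554980_a_at had 0.76 ± 0.47 (95% confidence interval -0.33 to 1.85), at 0.75 and 0.76 within the replicates. JUNB was at -0.07 ± 0.36 and the 4 JUN sets were between -0.54 and 0.02, with standard errors of 0.88 to 1.17. With the block the standard errors of the JUN interactions were 0.33 to 0.42.

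**Figure D3:**
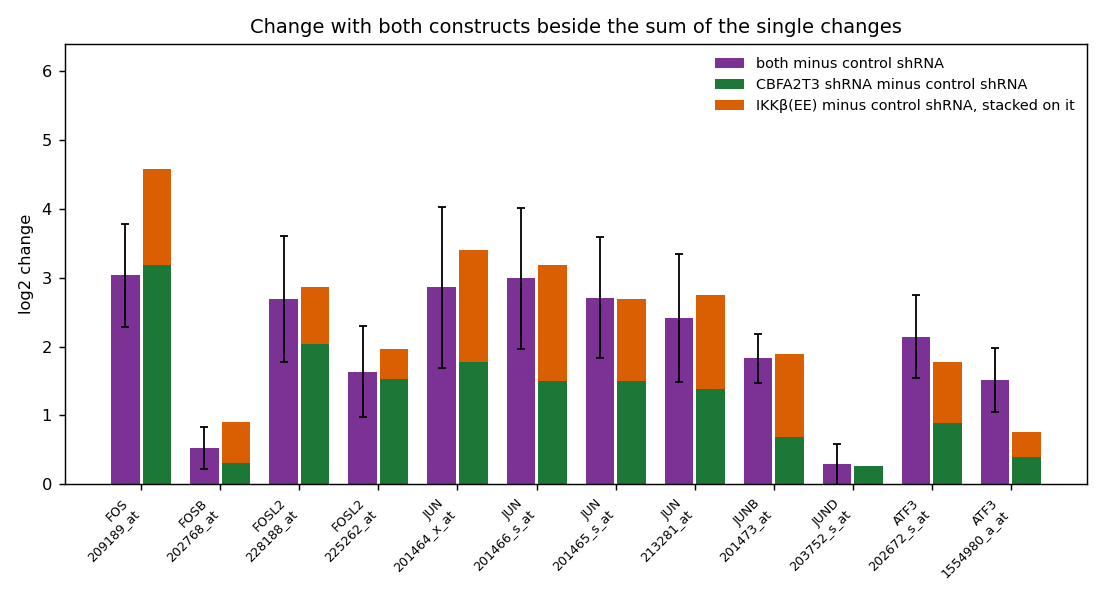
Log2 change against control shRNA (y axis) of the 12 tested probe sets (x axis): purple bars for both constructs, with the SE of the interaction, beside stacked bars for the CBFA2T3 shRNA and IKKβ(EE) alone. The FOS bar for both constructs stops at 3.04, below the top of its stack, while both ATF3 bars end above theirs.

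Most AP-1 probe sets also differed between the replicates. In the block fit the replicate term (replicate 2 minus 1, averaged over the 4 groups) was called higher for 7 of 12 sets, from FOS, JUN, JUND and ATF3, where 5.2% of all tested sets were, and lower for 0 of 12 (3.7%). JUN had the largest terms: 1.50 ± 0.21 on 201464_x_at (adjusted p = 0.0170, rank 7 of 24481), 1.33 ± 0.16 on 201466_s_at (adjusted p = 0.0135, rank 16), 1.20 ± 0.17 and 1.07 ± 0.21. FOS had 0.90 ± 0.18 (adjusted p = 0.0318), ATF3 0.76 ± 0.12 on 202672_s_at (adjusted p = 0.0215), and JUND 0.35 ± 0.08 (adjusted p = 0.0395). Replicate 2 was above replicate 1 in all 4 groups for 10 of 12 sets, against 18% of all sets. The exceptions were JUNB, where the control pair differed by -0.12, and FOSL2 set 228188_at, where it differed by -1.18. For JUND the gap between replicates exceeded each of its changes against control. For JUN the gap within the control pair was larger than the change with either construct alone on all 4 sets. The labels do not say what a replicate number marks.

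**Figure D4:**
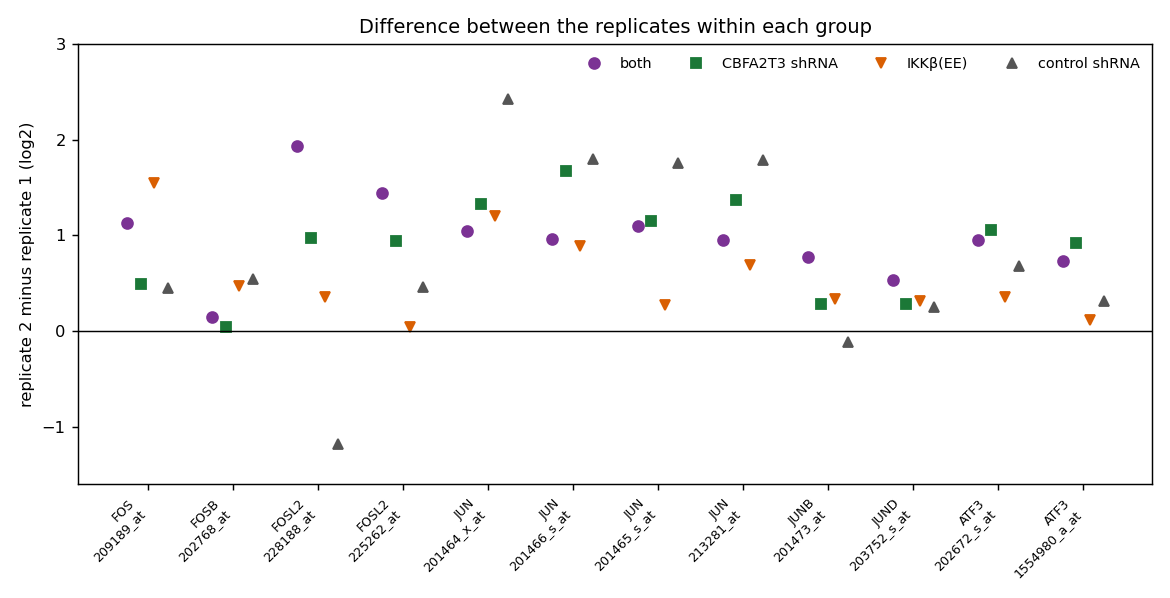
Replicate 2 minus replicate 1 (y axis, log2) for the 12 tested probe sets (x axis) in each group, with 1 symbol a group. The 4 JUN sets lie between 0.27 and 2.42 with the control pair on top, and the values below 0 are those of the control pair for JUNB and for FOSL2 set 228188_at.

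Other genes of the pathway were counted with 1 probe set per gene, the brightest, over lists chosen with earlier results of these data known. Among all tested probe sets 4.68% were called higher and 3.75% lower with both constructs against control (11.8% and 12% with the block), and the list counts are to be read against these shares. Of 11 other AP-1 partners 7 passed the floor, and with both constructs against control 4 were called higher and 0 lower, with a median change of 0.60 (all genes -0.02). MAFF, a small MAF protein, rose by 2.70 ± 0.49 (adjusted p = 0.0229) and BATF3, a lymphoid partner of JUN proteins, by 1.04 ± 0.21 (adjusted p = 0.0310). In the other 5 comparisons 0 of the 7 were called without the block. With it 1, 2 and 1 were called higher for IKKβ(EE) against control, both against IKKβ(EE) and both against the shRNA. Of all sets 2.96%, 2.18% and 3.64% were. MAFF passed for IKKβ(EE) against control (1.95 ± 0.49, block adjusted p = 0.00228) and for both against the shRNA (2.58 ± 0.49, block adjusted p = 0.000541), and BATF3 for both against IKKβ(EE) (0.98 ± 0.21, block adjusted p = 0.0251). Of 22 MAP kinase genes 16 were tested, with 2 called higher, 1 lower and a median of 0.02 with both constructs against control. MAP3K8 (TPL2), a kinase held by the NF-κB precursor p105, rose by 2.60 ± 0.33 (adjusted p = 0.00838) and MAPK10 (JNK3) by 0.76 ± 0.15 (adjusted p = 0.0289). When IKKβ(EE) was added to the shRNA, MAP3K8 rose by 2.55 ± 0.33 (adjusted p = 0.0220). MAPK9 (JNK2), a kinase that phosphorylates JUN, fell to 8.12 with both constructs, against 9.31 with the control (-1.19 ± 0.24, adjusted p = 0.0308). With the CBFA2T3 shRNA alone MAPK9 changed by -1.44 ± 0.24 (adjusted p = 0.0546, block 0.0115). Of 11 SRF, MRTF, ternary complex, CREB and MEF2 factors, ELK4 alone was called, at 0.51 ± 0.12 with both constructs against control (adjusted p = 0.0465, list median 0.15). With the block 4 of these factors were called higher and 1 lower.

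Of 20 genes often named as AP-1 targets 10 were tested, and with both constructs against control 7 were called higher and 0 lower, with a median of 2.31. With the block 8 were called higher and 1 lower, PLAUR, the urokinase receptor gene (-0.45 ± 0.12, block adjusted p = 0.0182). CXCL8, a neutrophil chemokine, rose by 4.20 ± 0.84 (adjusted p = 0.0298) and PLAU, the urokinase protease, by 3.70 ± 0.46 (adjusted p = 0.00746). Several of the called genes, CXCL8, IL6, MMP9, PLAU and CCND1 among them, are also known NF-κB targets, and the share of either factor was not tested. With IKKβ(EE) alone IL6 was called (1.46 ± 0.19, adjusted p = 0.0441), and with the CBFA2T3 shRNA alone 0 of 10 were called, with LGALS1, the galectin-1 gene, at 2.53 ± 0.74 (adjusted p = 0.162, block 0.00691). When IKKβ(EE) was added to the shRNA 4 of 10 were called higher (0.821% of all sets), with PLAU at 2.99 ± 0.46 (adjusted p = 0.0364) and CCND1, the cyclin D1 gene, at 2.62 ± 0.37 (adjusted p = 0.0271). In these 3 comparisons the calls with the block were 6 of 10 for IKKβ(EE) (2.96% of all sets higher), 4 for the shRNA (3.98%) and 7 for IKKβ(EE) added to the shRNA (3.64%), all higher. PLAU and CCND1 stood at 4.37 and 3.87 in the control, under the floor, and passed it through the arrays where they were high. Other immediate early genes had 5 of 13 called higher with both constructs against control (10 of 13 with the block) and a median of 1.08, with EGR1 at 4.43 ± 0.52 (adjusted p = 0.00645) and EGR3 at 3.08 ± 0.71 (adjusted p = 0.0417). Against the shRNA alone both constructs gave 2 of 13 calls, IER3 at 1.85 ± 0.27 (adjusted p = 0.0316) and GADD45B at 1.51 ± 0.17 (adjusted p = 0.0138), where 0.821% of all sets were called higher. With the block there were 7 of 13 (3.64% of all sets).

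Profiles over the 8 arrays, each minus its own mean, were compared with 11442 other genes by the root mean square difference (on the log2 scale), as a description with no test. The profile of FOS varied by 1.40 about its mean and was most like those of CDC42EP3 (0.40), an effector of the GTPase CDC42, GATA3 (0.41), a transcription factor of T cells, and the potassium channel gene KCNJ16 (0.47). JUN (201464_x_at, varying by 1.30) was most like MTSS1 (0.48), NEDD9 (0.50), an adhesion scaffold gene, and the receptor gene GPR18 (0.51). ATF3 (202672_s_at, varying by 0.86) had a closer match in KLF6 (0.15), an immediate early zinc finger factor, followed by JAZF1 (0.22) and OTUD1 (0.24). KLF6 read 10.89 and 11.58 with both, 9.63 and 10.66 with the CBFA2T3 shRNA, 10.00 and 10.50 with IKKβ(EE), and 9.05 and 9.81 with the control. KLF6 thus shared with ATF3 the highest pair, that with both constructs, and replicate 2 above replicate 1 in each group. The control pair of KLF6 overlapped the shRNA pair, which that of ATF3 on 202672_s_at did not. Within the family FOSB and JUND, which varied least, differed by 0.27, the next closest pair was ATF3 and JUNB (0.37), and FOS was nearer to FOSL2 (0.70) than to JUN (0.83), ATF3 (0.92) or JUNB (1.05). Probe sets of 1 gene differed by 0.21 to 0.33 for JUN, 0.28 for ATF3 and 0.58 for FOSL2.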

How the data were processed

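The study put biotin-labelled total RNA from Reh cells on Affymetrix U133 Plus 2.0 arrays, 8 in number. The deposited values are log2 intensities that the authors made with RMA, per the submitters' processing notes, which name no version. RMA gives every array nearly the same distribution, so a change common to most transcripts cannot be seen. That the base is 2 follows from the range of values, up to 14.6. No detection calls were used, and levels under log2 5 are treated as close to background.

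After 62 controls and 30132 sets under log2 5 on all or all but 1 array were set aside, 24481 of 54675 probe sets were tested. GEO's platform annotation gave 1 symbol for 41097 sets, and 1801 sets with several were not named. The model, in limma 3.58.1 under R 4.3.3, had 4 group means and 1 shared spread (4 residual and 3.54 prior degrees of freedom). Tests were two-sided, with Benjamini-Hochberg adjustment within each of 6 comparisons. The few arrays limit precision: a difference had a median standard error of 0.154, and 2 arrays against 2 allow no exact permutation p below 0.333. Values after ± are the fit's standard errors unless SD is written.

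The differences between replicates 2 and 1 were correlated for each of the 6 group pairs (0.344 to 0.577 over 24481 sets), and on that basis, not from the labels, equal numbers were treated as pairs.

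The fit was tested on simulated data. The text names every member, CBFA2T3 and IKBKB, in each gene list the called genes with the largest changes (at most 2 in either direction) or, where none was called, genes at the ends of the range, and the 3 genes most like FOS, JUN and ATF3. HSPA6, VPREB1, DNTT, CD79B, ITGAM, CSF1R, PLAUR and the further NF-κB targets were named after their values were seen. Members and lists were chosen with earlier results of these data known. The alternatives were a floor of log2 6 or none, limma's trend and robust options, cyclic loess, equal array medians, the replicate block, only the compared groups, 1 probe set per gene, and each array left out. The block combined with a left-out array, and the test of the replicate term, were added after seeing the data.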

Additional observations from a re-analysis of the deposited data

How the results depend on the processing

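The directions of the 7 AP-1 calls with both constructs against control held in every setting tried. Their number was 7 under cyclic loess, equal array medians, limma's trend and robust options, a floor of log2 6 or none, 11 with the replicate block, 3 with the compared groups alone and 4 with 1 probe set per gene, where fewer sets were tested. Without 1 array it was 0 to 8, and without 1 array but with the block 8 to 11. For the CBFA2T3 shRNA against control the 0 calls became 7 with the block and 1 (FOS) with no floor, the trend and robust options, the compared groups alone or 1 probe set per gene, 0 to 1 without 1 array, and 0 to 9 without 1 array with the block. For IKKβ(EE) against control they became 6 with the block, 0 to 1 without 1 array, and 1 to 6 with the block (2 without control replicate 1). For both against IKKβ(EE) they became 5 with the block, 0 without any 1 array, and 0 to 8 with the block (2 without IKKβ(EE) replicate 1). For both against the CBFA2T3 shRNA they became 4 with the block, 0 to 1 without 1 array, and 0 to 7 with the block. The interaction gave 0 calls in every setting. The block changed 26 of 72 member values from uncalled to called and ended no call. The cause of these shifts was not tested.

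Of the 72 member changes 16, of which 0 were called, turned their sign without 1 array. The FOS change of both constructs against the shRNA ranged from -0.72 to 0.41, that of FOSL2 from -0.31 to 1.63 (228188_at) and -0.60 to 0.83 (225262_at), and that of JUND from -0.24 to 0.30. FOSB ranged from -0.30 to 0.17 for both against IKKβ(EE), JUND from -0.15 to 0.16 for IKKβ(EE) against control, where equal array medians gave -0.0013, and ATF3 (1554980_a_at) from -0.065 to 0.85 for the shRNA against control. Interactions ranged from -0.17 to 0.89 for ATF3 (202672_s_at), -1.05 to 0.39 and -1.15 to 0.79 for FOSL2, -1.75 to 0.67, -0.85 to 0.90, -1.09 to 0.71 and -1.23 to 0.55 for JUN, -0.45 to 0.32 for JUNB and -0.24 to 0.29 for JUND. Control means near log2 5 (FOS and 3 JUN sets) or below it (FOSL2 and FOSB) limit their folds.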
